A study of Mus musculus with 6 samples.

Results

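Integrins are the receptors that tie epithelial cells to the extracellular matrix, and the 10 subunit genes described here lie outside the hemidesmosome pair Itga6 and Itgb4 and were chosen by name: Itga1, Itga2, Itga3, Itga5, Itga9, Itgav, Itgb1, Itgb5, Itgb6 and Itgb8. They were chosen with earlier results of these data known, and were found by symbol among the 53379 genes of the count files. Levels were measured by RNA sequencing of intestinal stem cells of adult C57BL/6 mice, isolated by flow cytometry as Lgr5-EGFP-high cells from proximal small intestinal crypts. The 3 libraries labelled Klf5-KO came from mice with Lgr5-EGFP-IRES-CreERT2, Rosa-tdTomato and Klf5fl/fl. The 3 control libraries came from mice with the same Lgr5 and Rosa alleles and no floxed Klf5. Both groups were given 1 mg tamoxifen injections over 5 days. For both groups the labels give 5 mM EDTA and a dissociation of 45 min. CreERT2 is expressed from the Lgr5 locus in both. The labels do not give the time from tamoxifen to the sort, the ages of the mice, or whether each library was a separate mouse. The p-values therefore reflect only how far these 6 libraries vary, which may be technical.

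Each integrin is a pair of 1 alpha and 1 beta chain. Itgb1 is the common beta chain and joins many alpha chains, whereas Itgb5, Itgb6 and Itgb8 are known to pair with Itgav. The alpha chain sets much of the ligand choice: Itga1 and Itga2 make collagen receptors, Itga3 a laminin receptor, Itga5 the classical fibronectin receptor, and Itgav a family of receptors for the RGD tripeptide in vitronectin, fibronectin and the latent form of TGF-beta. In the gut epithelium, beta1 integrins hold crypt cells to the basement membrane.

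Depth was 61563625 to 77666540 counts a library. Klf5, the gene that the labels give as knocked out, was higher and not lower in the libraries labelled Klf5-KO: it stood at 880, 918 and 877 CPM (counts scaled to library size with TMM factors) in their replicates 1, 2 and 3, and at 480, 512 and 547 CPM in the controls (log2 fold change 0.80, SE 0.10; edgeR adjusted p = 6.3e-04). A count over the whole gene cannot separate the floxed exons, so it neither shows the deletion nor checks the group labels. Directions therefore refer to the labels. The file header of Klf5-KO replicate 3 gives a KO library with another number than its title, whereas the other 5 headers match their titles, and its group rests on its label. Among the controls, replicate 3 differed from the other two in Paneth cell transcripts: 8 markers summed to 16838 CPM there, 1465 and 1735 CPM in control replicates 1 and 2, and 7716 to 9695 CPM in the libraries labelled Klf5-KO. The 6 epithelial markers summed to 3840 to 4353 CPM in the libraries labelled Klf5-KO and 5049 to 5579 CPM in the controls. Of these, Cdh1, Krt8, Krt18 and Krt19 fell (log2 fold changes -0.52, -0.71, -0.51 and -0.48), and Epcam and Vil1 were not called. Over all genes tested, 12.5% were called lower.

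The promoters of 4 of the genes are shown because their transcripts frame the result: Itga1 and Itga5 had the 2 largest fold changes of the 10, Itga3 was the member that fell, and Itgb1 is the beta chain that the 3 have in common. Each sequence is the RefSeq window (GRCm38.p6) from 250 bases before to 50 bases after the annotated start, written 5′ to 3′ in the direction of the gene. Capitals mark matches to CCNCNCCC, the letters of the motif that Kruppel-like factors are known to bind, on either strand.
Itga1, chr13:115101915-115102214, minus strand: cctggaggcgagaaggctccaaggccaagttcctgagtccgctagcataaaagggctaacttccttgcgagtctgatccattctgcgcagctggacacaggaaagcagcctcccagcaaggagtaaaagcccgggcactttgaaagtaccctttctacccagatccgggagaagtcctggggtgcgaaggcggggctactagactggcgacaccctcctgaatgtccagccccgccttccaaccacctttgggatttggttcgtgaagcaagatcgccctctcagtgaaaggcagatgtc
Itga5, chr15:103366742-103367041, minus strand: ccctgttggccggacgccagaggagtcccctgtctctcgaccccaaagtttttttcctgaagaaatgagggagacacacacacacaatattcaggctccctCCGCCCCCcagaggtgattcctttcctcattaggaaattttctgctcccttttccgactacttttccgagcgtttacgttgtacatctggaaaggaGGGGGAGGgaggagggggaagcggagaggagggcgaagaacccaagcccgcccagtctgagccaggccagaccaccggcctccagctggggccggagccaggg
Itga3, chr11:95076665-95076964, minus strand: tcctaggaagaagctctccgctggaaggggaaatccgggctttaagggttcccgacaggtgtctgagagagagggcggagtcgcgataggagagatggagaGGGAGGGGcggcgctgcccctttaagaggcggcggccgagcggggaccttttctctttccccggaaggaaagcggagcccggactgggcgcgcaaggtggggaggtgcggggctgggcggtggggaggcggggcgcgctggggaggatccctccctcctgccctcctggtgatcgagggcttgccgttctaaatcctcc
Itgb1, chr8:128685404-128685703, plus strand: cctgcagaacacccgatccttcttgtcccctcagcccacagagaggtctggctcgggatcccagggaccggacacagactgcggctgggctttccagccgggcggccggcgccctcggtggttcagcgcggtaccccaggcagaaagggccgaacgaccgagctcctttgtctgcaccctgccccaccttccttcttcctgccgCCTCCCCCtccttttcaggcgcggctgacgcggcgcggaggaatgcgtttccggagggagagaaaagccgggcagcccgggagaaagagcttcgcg
The Itga1 window held 0 matches, Itga5 held 2, and Itga3 and Itgb1 held 1 each. Counting the first window of each gene, Itga2 held 1 match, Itgb5 held 5 and Itgb8 held 4, some of them overlapping. Itga9, Itgav and Itgb6 held 0. The Itga9 window (chromosome 9, 118711442 to 118711741, plus strand) lies inside the gene, whose exons begin at 118606690, and not at its 5′ end. Of all 32851 promoter windows of this length, 49.5% held at least 1 match. The matches describe the letters of these windows only.

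Most of the 10 transcripts were higher in the libraries labelled Klf5-KO. The low-count filter kept 9 of the 10, all with at least 59 counts in every library. Of these 9, 6 rose and 1 fell at an adjusted p under 0.05 (edgeR's quasi-likelihood test), where 25.8% of all 19339 genes tested were called, 13.3% higher and 12.5% lower. Itga1, Itga5, Itga9, Itga2, Itgav and Itgb1 rose, Itga3 fell, and Itgb5 and Itgb6 were not called. The median log2 fold change of the 9 was 0.47, against -0.01 over all genes tested. In 7 of the 9 all 3 values of the libraries labelled Klf5-KO lay above all 3 control values. This held for 22.2% of all genes tested. Because the 10 genes were chosen with earlier results known, the comparison with all genes describes the list and does not test it. In a sorted population, a higher transcript level per cell and a larger share of cells with that transcript cannot be told apart.

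**Figure D1:**
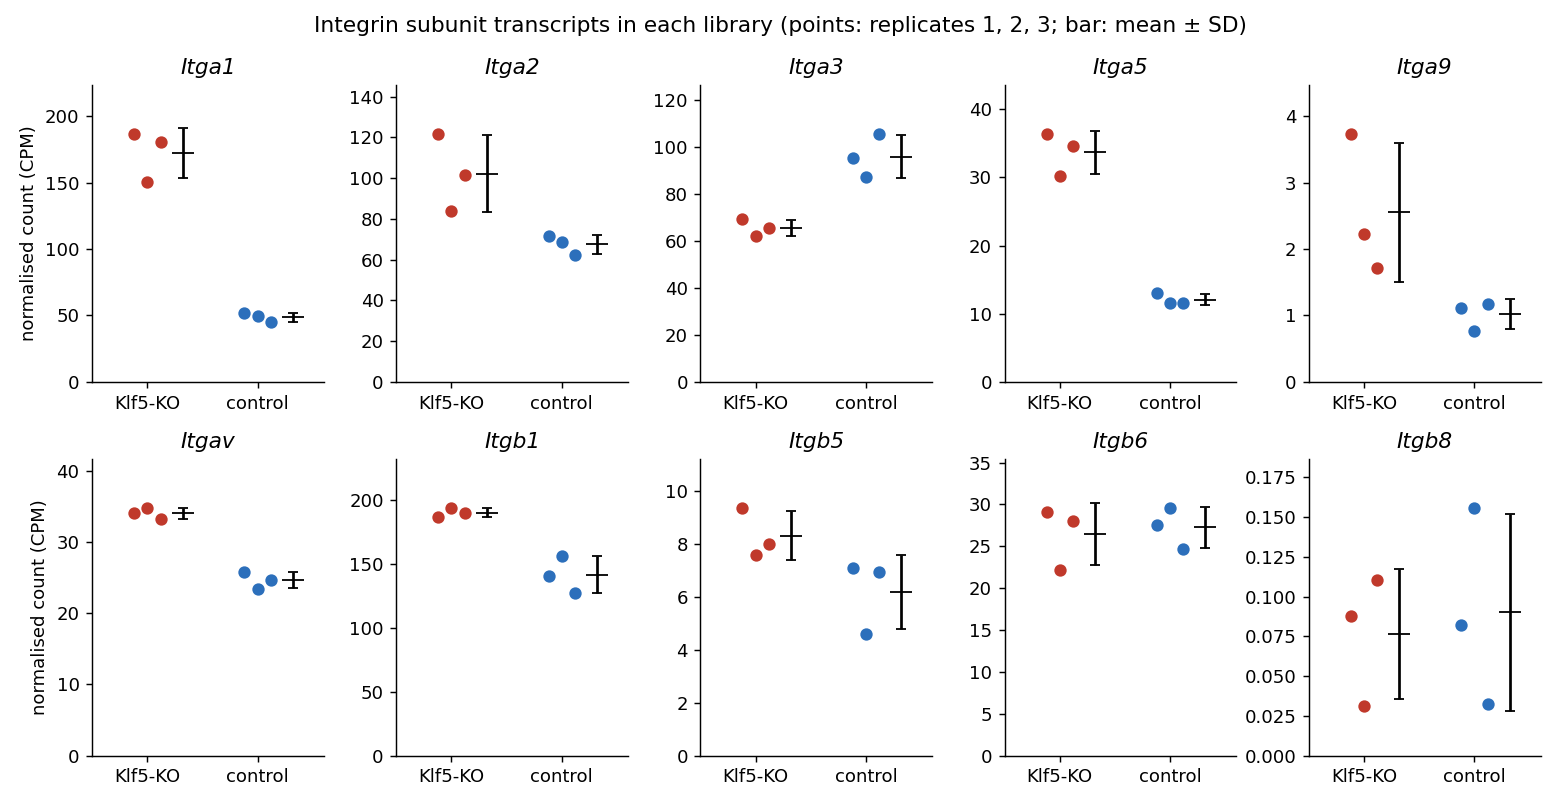
Normalised counts (CPM, linear axes from 0, scaled separately for each gene) of the 10 integrin genes, with the 3 libraries labelled Klf5-KO in red on the left of each panel and the 3 controls in blue on the right; black bars give the mean ± SD. Itga1 lies at 151 to 186 CPM in the libraries labelled Klf5-KO and at 45.0 to 51.5 CPM in the controls, Itga3 is the gene with all Klf5-KO points below the controls, and Itgb6 and Itgb8 overlap.

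Among the collagen receptors, Itga1 had the largest fold change of the 10. The gene (ENSMUSG00000042284.10; mm10 chromosome 13, 114953096 to 115101964, minus strand, 30 exon blocks) stood at 186, 151 and 180.2 CPM in Klf5-KO replicates 1, 2 and 3. The control libraries had 51.5, 49.3 and 45.0 CPM. All 3 Klf5-KO values were far above the controls, and replicate 2 was the lowest of them. Itga1 rose 3.55-fold (log2 fold change 1.83, SE 0.11; edgeR adjusted p = 9.0e-06). The gene Gm49395 shares 685 of the 18599 exon bases of Itga1 on the same strand. Reads in that stretch match both genes, and how they were assigned was not tested. Gm49395 itself was counted at 0.72 CPM in the libraries labelled Klf5-KO and 0.29 CPM in the controls, which does not measure the reads in the shared stretch.

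Itga2, the other collagen-binding alpha chain, lies next to Itga1 in the genome (ENSMUSG00000015533.9; chromosome 13, 114833081 to 114932100, minus strand, 31 exon blocks), 20995 bases away, with exons of 1 other counted gene in the gap. It stood at 121, 83.7 and 101 CPM in the libraries with the Klf5-KO label and at 71.5, 68.6 and 62.3 CPM in the controls. Both genes rose, and the groups did not overlap for either. The size differed: Itga2 rose 1.51-fold (log2 fold change 0.60, SE 0.13, adjusted p = 0.0097, edgeR). The ratio of Itga1 to Itga2 per kilobase of exon was 0.588, 0.690 and 0.682 in the libraries labelled Klf5-KO, and 0.276, 0.276 and 0.277 in the controls. With the longest transcript as the length, its geometric mean was 1.10 in the libraries labelled Klf5-KO and 0.467 in the controls. Which of the 2 chains was higher in the libraries labelled Klf5-KO thus depended on the length used. This ratio was chosen after the values were seen and is given as a description.

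Itga3, whose protein forms a receptor for the laminins of the basement membrane with Itgb1, went the other way. The gene (ENSMUSG00000001507.16; chromosome 11, 95044474 to 95076801, minus strand, 27 exon blocks) stood at 69.2, 62.1 and 65.4 CPM in the libraries with the Klf5-KO label. Controls had 95.2, 87.5 and 105 CPM. It fell by 0.55 on the log2 scale (SE 0.09, adjusted p = 0.0030, edgeR), to 0.683 of the control level, with no overlap between the groups. The laminin-binding chains of the hemidesmosome also fell: Itgb4 stood at 77.8 ± 5.99 CPM in the libraries labelled Klf5-KO and 152 ± 18.6 CPM in the controls, and Itga6 at 347 ± 19.1 and 459 ± 46.6 CPM (SD, n = 3 each; log2 fold changes -0.97 and -0.40, adjusted p = 3.4e-04 and 0.020, edgeR). The Itga6 call was lost without any 1 library other than control replicate 3 (adjusted p = 0.051 to 0.092). The level of Itga3 relative to Itga6 per kilobase was 0.301, 0.279 and 0.317 in the libraries labelled Klf5-KO and 0.324, 0.275 and 0.406 in the controls, so these ranges overlapped. This ratio was not planned and is given as a description, without a test.

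Of the chains that bind the RGD tripeptide, Itga5 rose most. This gene for the fibronectin receptor (ENSMUSG00000000555.7; chromosome 15, 103344286 to 103366763, minus strand, 31 exon blocks) stood at 36.3, 30.1 and 34.6 CPM in the libraries with the Klf5-KO label and at 13.0, 11.6 and 11.6 CPM in the controls. All Klf5-KO values were more than 2 times every control value. Itga5 rose 2.79-fold (log2 fold change 1.48, SE 0.11; edgeR adjusted p = 3.4e-05). Among tested genes, 5.68% were called higher with a change of at least 2-fold, and Itga1, Itga5 and Itga9 were the members that passed this mark.

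Itgav (ENSMUSG00000027087.11; chromosome 2, 83724397 to 83806916, plus strand, 32 exon blocks) had a smaller and even rise. It stood at 34.1, 34.8 and 33.3 CPM in the libraries with the Klf5-KO label and at 25.7, 23.4 and 24.7 CPM in the controls. Itgav rose by 0.47 on the log2 scale (SE 0.08; edgeR adjusted p = 0.0041). The spread within each group was narrow, with an SD of 0.748 CPM in the libraries labelled Klf5-KO and 1.14 CPM in the controls.

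Itga9 encodes a chain that binds tenascin-C and VCAM-1, and it was the least abundant of the tested members. The gene (ENSMUSG00000039115.13; chromosome 9, 118606690 to 118901003, plus strand, 32 exon blocks) was covered by 255, 143 and 124 reads in the libraries labelled Klf5-KO and 81, 59 and 73 reads in the controls, or 3.72, 2.23 and 1.71 CPM against 1.11, 0.765 and 1.18 CPM. The groups did not overlap, but replicate 1 was well above the other two libraries labelled Klf5-KO. Itga9 rose by 1.33 on the log2 scale (SE 0.32; edgeR adjusted p = 0.015). It was no longer called without Klf5-KO replicate 1 (log2 fold change 0.96, adjusted p = 0.057) or without control replicate 2 (1.15, adjusted p = 0.054).

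The common beta chain Itgb1 was the most abundant of the 10 in both groups. The gene (ENSMUSG00000025809.15; chromosome 8, 128685654 to 128733200, plus strand, 17 exon blocks) stood at 187, 194 and 190.1 CPM in the libraries with the Klf5-KO label. The controls had 141, 157 and 128 CPM, the lowest of them in control replicate 3. Itgb1 rose 1.34-fold (log2 fold change 0.42, SE 0.09, adjusted p = 0.010, edgeR) with no overlap between the groups. Without control replicate 3 the log2 fold change was 0.35 (adjusted p = 0.013, edgeR).

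Neither of the measurable beta partners of Itgav alone was called. Itgb5, whose pair with Itgav binds vitronectin (ENSMUSG00000022817.14; chromosome 16, 33829665 to 33949153, plus strand, 18 exon blocks), stood at 9.35, 7.57 and 8.01 CPM in the libraries with the Klf5-KO label and at 7.08, 4.58 and 6.92 CPM in the controls. All 3 values of the first group lay above those of the second, by little. The log2 fold change of 0.43 had a 95% interval of 0.01 to 0.84 before adjustment and did not pass after it (adjusted p = 0.12, edgeR).

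Itgb6 encodes an epithelial chain that with Itgav activates latent TGF-beta (ENSMUSG00000026971.15; chromosome 2, 60598292 to 60722643, minus strand, 20 exon blocks). It stood at 29.1, 22.2 and 28.0 CPM in the libraries with the Klf5-KO label and at 27.6, 29.6 and 24.7 CPM in the controls, so that the groups overlapped. The fitted difference was -0.04 on the log2 scale, with a 95% interval of -0.32 to 0.23 (edgeR adjusted p = 0.82), so smaller changes in either direction were not detectable with these libraries.

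Itgb8, which also forms an activator of latent TGF-beta with Itgav, was barely detected (ENSMUSG00000025321.14; chromosome 12, 119158022 to 119238802, minus strand, 14 exon blocks). It had 6, 2 and 8 counts in the libraries labelled Klf5-KO and 6, 12 and 2 counts in the controls, at most 0.156 CPM in any library. A difference was not detectable at this depth, where even 3 counts correspond to 0.0389 to 0.0484 CPM. It was not tested.

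**Figure D2:**
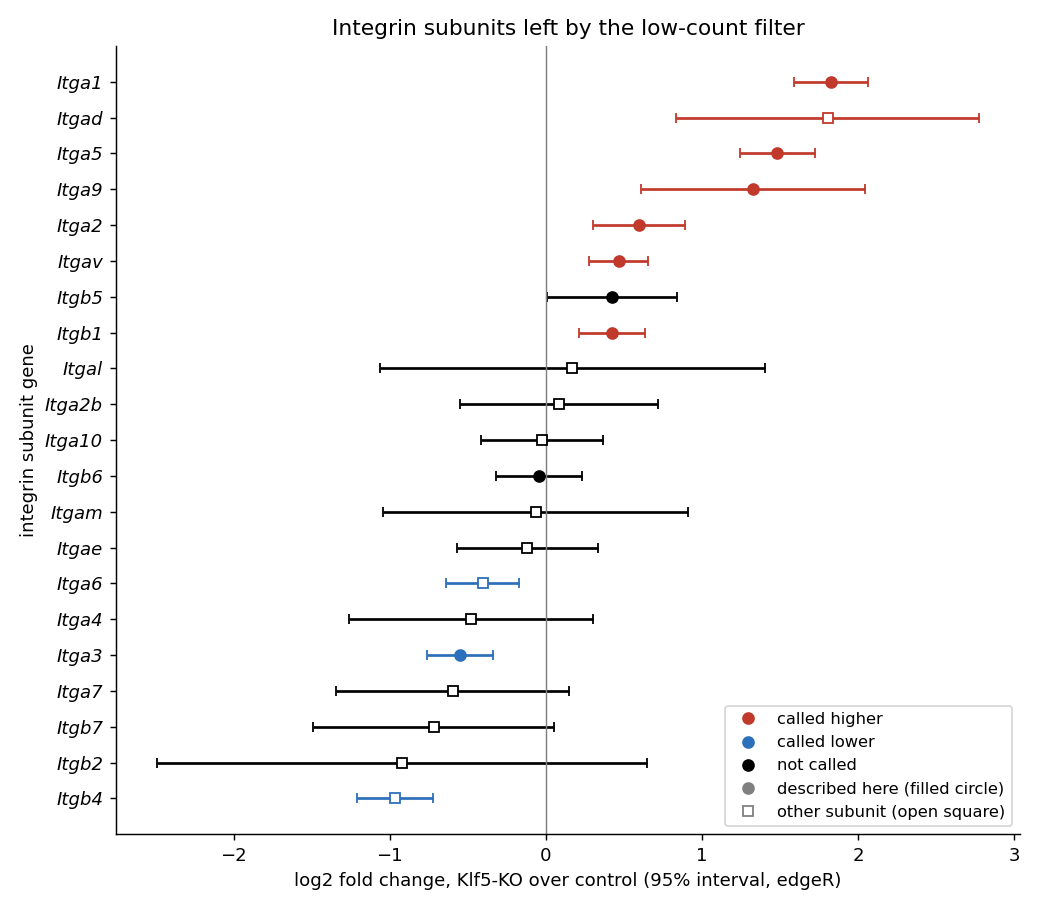
Log2 fold changes (libraries labelled Klf5-KO over control) of the 21 integrin subunit genes that passed the low-count filter, with 95% intervals from the edgeR fit. Filled circles are the 9 tested members, open squares the other subunits. Red marks genes called higher, blue genes called lower and black genes not called. Itga3 at -0.55, Itga6 and Itgb4 are the genes called lower, and several subunits that were not called also lie below 0. Itga1 at 1.83 lies at the top.

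Levels of different genes were compared per kilobase of summed exon bases (RPKM). In the libraries labelled Klf5-KO the order was Itgb1 (46.6 ± 0.841 RPKM, SD, n = 3), Itga2 (14.3 ± 2.64), Itga3 (11.5 ± 0.621), Itga1 (9.27 ± 1.02), Itga5 (7.58 ± 0.716), Itgb6 (3.72 ± 0.523), Itgav (3.17 ± 0.0696), Itgb5 (2.47 ± 0.275), Itga9 (0.332 ± 0.136) and Itgb8 (0.00691 ± 0.00369). The library values of neighbours overlapped in 3 places: Itga2 with Itga3, Itga1 with Itga5, and Itgb6 with Itgav. In the controls Itgb1 was again first (34.8 ± 3.57 RPKM) but Itga3 was second (16.8 ± 1.58), ahead of Itga2 (9.46 ± 0.657), Itgb6 (3.84 ± 0.344), Itga5 (2.72 ± 0.178), Itga1 (2.61 ± 0.179), Itgav (2.29 ± 0.106), Itgb5 (1.84 ± 0.417), Itga9 (0.132 ± 0.0289) and Itgb8 (0.00815 ± 0.00561). There, only Itga5 and Itga1 overlapped as neighbours. Of the 10, Itga1 moved most with the choice of length, since its summed exons (18599 bases) are far longer than its longest transcript (10967 bases). Per kilobase of the longest transcript it stood at 15.7 ± 1.73 in the libraries labelled Klf5-KO and 4.43 ± 0.303 in the controls (SD, n = 3 each), and its values in the libraries labelled Klf5-KO then overlapped those of Itga2. On that scale its control values lay below those of Itgb1, Itga3, Itga2 and Itgb6.

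The alpha chains were then set beside Itgb1 within each library, a ratio that does not depend on how libraries are scaled. The level of Itga1 was 0.218, 0.171 and 0.208 of that of Itgb1 in the libraries labelled Klf5-KO, and 0.0800, 0.0691 and 0.0773 in the controls. Itga5 stood at 0.178, 0.143 and 0.167 of Itgb1 in the libraries labelled Klf5-KO, and at 0.0845, 0.0680 and 0.0835 in the controls. The ratio to Itgb1 was thus 2.63 times higher for Itga1 and 2.07 times higher for Itga5 in the libraries labelled Klf5-KO. With the longest transcript as the length, the geometric mean for Itga1 was 0.314 in the libraries labelled Klf5-KO and 0.119 in the controls. Itga3 moved against Itgb1, at 0.265, 0.229 and 0.246 in the libraries labelled Klf5-KO and 0.482, 0.399 and 0.590 in the controls, a difference of -0.98 on the log2 scale.

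For these 3 pairs the groups did not overlap, and the exact two-sided permutation test gave p = 0.1 (adjusted p = 0.2 over 8 pairs), the smallest p that 3 against 3 libraries can give. The ratio of Itgav to Itgb6 also did not overlap, at 0.774, 1.04 and 0.786 in the libraries labelled Klf5-KO and 0.617, 0.525 and 0.662 in the controls (exact permutation p = 0.1, adjusted p = 0.2). The other 4 ratios overlapped between the groups. Itga2 over Itgb1 differed by 0.15 on the log2 scale (exact permutation p = 0.5) and Itga9 over Itgb1 by 0.85 (p = 0.2). Itgav over Itgb1 differed by 0.04 (exact permutation p = 1) and Itgav over Itgb5 by 0.02 (p = 0.8). The pair of Itgav with Itgb8 was left out because of the few counts of Itgb8.

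**Figure D3:**
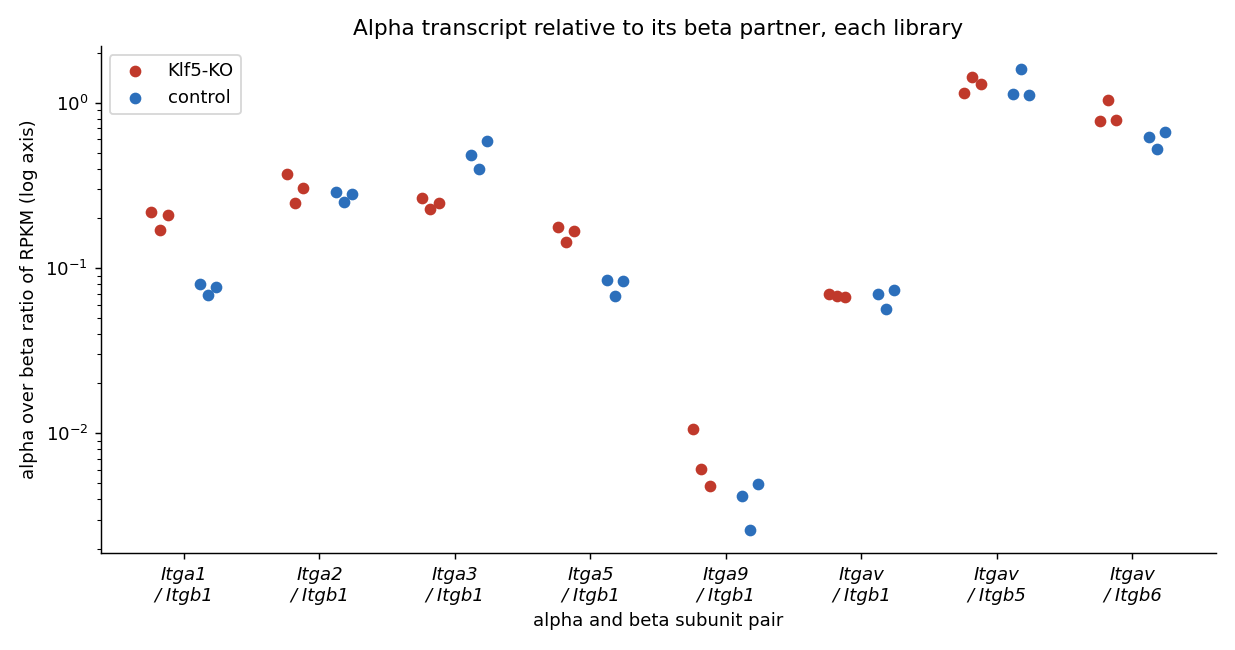
Ratio of the alpha gene to the beta gene in RPKM (log axis) for 8 pairs, with the libraries labelled Klf5-KO in red to the left of the controls in blue and 1 point a library. Itga1 and Itga5 lie higher relative to Itgb1 in the libraries labelled Klf5-KO, Itga3 lies lower, and Itgav relative to Itgb1 or Itgb5 overlaps.

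The 6 alpha chains described here and Itga6, all of which can join Itgb1, were also summed, and each chain is given as a share of that sum. Of the other known partners of Itgb1, which the sum leaves out, Itga10 stood at 0.687 ± 0.0916 RPKM in the libraries labelled Klf5-KO and 0.699 ± 0.0598 RPKM in the controls, and Itga4, Itga7, Itga8 and Itga11 were lower still. Summed over Itga1, Itga2, Itga3, Itga5, Itga6, Itga9 and Itgav, the level was 84.6 ± 5.85 RPKM in the libraries labelled Klf5-KO and 84.9 ± 4.23 RPKM in the controls (SD, n = 3 each), a difference smaller than either SD. Itga6, which is also the partner of Itgb4, made up 45.5 ± 2.79% of this sum in the libraries labelled Klf5-KO and 59.8 ± 3.24% in the controls. Itga1 made up 10.9 ± 0.806% in the libraries labelled Klf5-KO and 3.07 ± 0.112% in the controls. The groups did not overlap for either chain; these shares were given no test. Itga5 took 8.96 ± 0.480% and 3.20 ± 0.216%, Itga2 16.8 ± 2.02% and 11.1 ± 0.406%, and Itga3 13.6 ± 0.290% and 19.9 ± 2.89%, each in the libraries labelled Klf5-KO and in the controls. With the longest transcript as the length, the sum was 137 ± 7.97 RPKM in the libraries labelled Klf5-KO and 147 ± 9.63 RPKM in the controls. That difference was larger than either SD, with library values that overlapped. On that scale Itga1 took 11.5 ± 1.00% of the sum in the libraries labelled Klf5-KO and 3.02 ± 0.126% in the controls. The share of Itga6 moved more with the length, to 58.9 ± 2.62% in the libraries labelled Klf5-KO and 72.6 ± 2.69% in the controls. These shares are of transcripts and say nothing of the pairs formed at the cell surface.

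**Figure D4:**
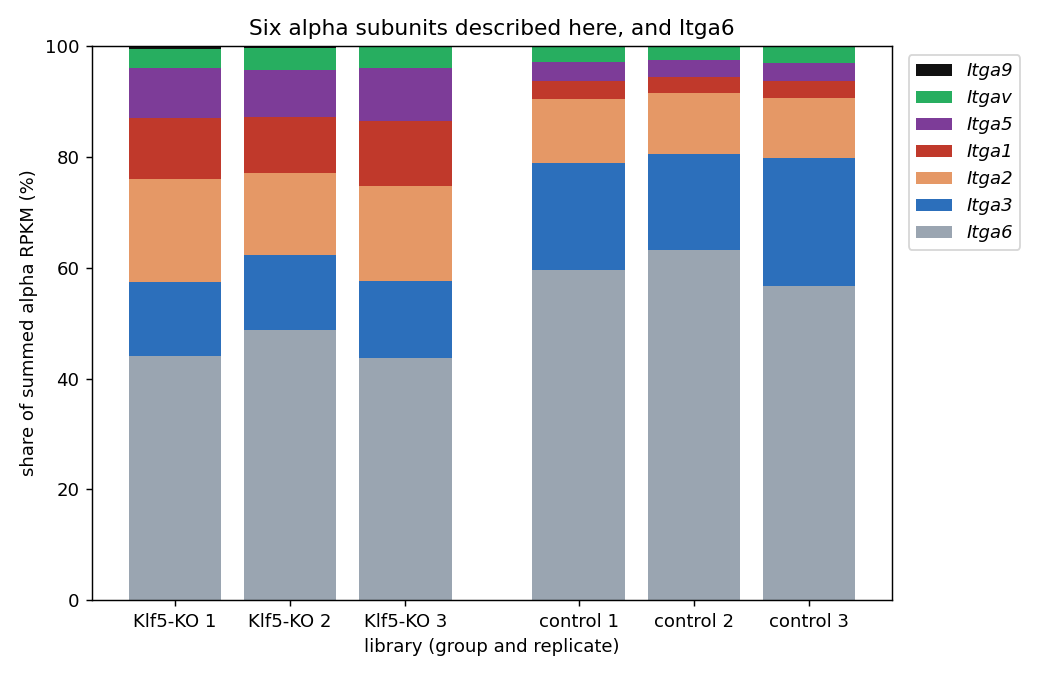
Share of each alpha gene (percent) in the summed RPKM of the 6 alpha genes described here and Itga6, 1 stacked bar for each library, Klf5-KO on the left and control on the right. The grey Itga6 part is 43.7 to 48.7% of the bars labelled Klf5-KO and 56.7 to 63.2% of the control bars, and the red Itga1 part is 10.1 to 11.7% of the bars labelled Klf5-KO and 3.01 to 3.20% of the control bars.

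Besides the 10, 17 integrin subunit genes were listed. Of the 12 tested, 3 were called, a share near the 25.8% of all genes tested: Itga6 and Itgb4 fell and Itgad rose, with a median log2 fold change of -0.26. Itgad, a chain known from macrophages, was low, at 1.68, 1.59 and 1.02 CPM in the libraries with the Klf5-KO label and 0.687, 0.182 and 0.355 CPM in the controls (log2 fold change 1.81, SE 0.43, adjusted p = 0.015, edgeR). Its call was lost without Klf5-KO replicate 1 (adjusted p = 0.057). The leukocyte beta chain Itgb2, with which Itgad pairs, was at 0.0312 to 0.166 CPM in the libraries labelled Klf5-KO and 0.0519 to 0.302 CPM in the controls.

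Genes of the adhesion complex, the proteins that link integrins to actin and to signalling, fell more often than they rose. Of 27 listed, 24 were tested, with a median log2 fold change of -0.16. Of the 24, 8 fell (33.3%, against 12.5% of all genes tested) and 3 rose (12.5%, against 13.3%). The largest fall was that of Bcar1, the scaffold p130Cas, at 33.0, 30.1 and 31.2 CPM in the libraries with the Klf5-KO label and 66.0, 73.6 and 69.0 CPM in the controls (log2 fold change -1.15, SE 0.09, adjusted p = 4.0e-05, edgeR). The talin gene Tln2 and the tensin genes Tns4 and Tns2 fell as well, by 0.83, 0.70 and 0.83 on the log2 scale. Talins and tensins bind the tails of beta chains. The talin Tln1 and the epithelial kindlin Fermt1 were not called: the log2 fold changes were 0.17 for Tln1 and -0.13 for Fermt1 (edgeR adjusted p = 0.16 and 0.42). The 3 genes that rose, named after their values were seen, were the vinculin gene Vcl (log2 fold change 0.34), the integrin-linked kinase gene Ilk (0.35) and Tns1 (1.96), the last at 1.19 ± 0.459 CPM in the libraries labelled Klf5-KO and 0.305 ± 0.0334 CPM in the controls. Without Klf5-KO replicate 3, 4 of the list fell and 1 rose, and without Klf5-KO replicate 2, 5 fell. Over all genes, 1526 were called lower and 1783 higher without Klf5-KO replicate 3, and 1606 lower without Klf5-KO replicate 2. With all 6 libraries these counts were 2413 lower and 2581 higher.

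The 13 genes of integrin partners and traffic had a median log2 fold change of 0.11. Of these 13, 4 rose (30.8%, against 13.3% of all genes tested) and 2 fell (15.4%, against 12.5%). Cd47, which associates with integrins and signals to phagocytes, stood at 105, 114 and 102 CPM in the libraries with the Klf5-KO label and at 53.9, 57.3 and 49.5 CPM in the controls (log2 fold change 1.00, SE 0.09, adjusted p = 9.6e-05, edgeR). Slc3a2, whose CD98 heavy chain binds beta chains, and Rab21, which carries integrins through endosomes, rose by 0.69 and 0.31 on the log2 scale (adjusted p = 7.6e-04 and 0.031, edgeR). With the replicate number as a block, Rab21 was not called (adjusted p = 0.061), nor was it without Klf5-KO replicate 2 or 3 or control replicate 2 (adjusted p = 0.070 to 0.10). The tetraspanin gene Cd9 fell by 1.05 (SE 0.12, adjusted p = 3.5e-04, edgeR), to 18.6 ± 2.61 CPM against 38.5 ± 2.96 CPM in the controls. Dab2, an endocytic adaptor for beta chains, also rose, and Rab25, a partner of Itga5 and Itgb1 recycling, fell; both were named after their values were seen. Dab2 stood at 0.795 ± 0.371 CPM in the libraries labelled Klf5-KO and 0.165 ± 0.0631 CPM in the controls, with an edgeR adjusted p of 0.0064 for a log2 fold change of 2.25. Rab25 fell by 0.33 on the log2 scale (edgeR adjusted p = 0.039). Without any 1 library other than control replicate 1, 1 gene of this list was called lower. In those fits 1467 to 2664 of all genes were called lower, against 2413 with all 6 libraries.

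Most of the matrix ligands were barely detected in the sorted cells. Of 21 listed, 11 were tested and 13 stayed under 1 CPM in every library. Of the 11, 2 rose (18.2%, against 13.3% of all genes tested) and 1 fell (9.09%, against 12.5%). Hspg2, which encodes the basement membrane proteoglycan perlecan, fell to 82.5 ± 2.15 CPM in the libraries labelled Klf5-KO, against 230.3 ± 27.1 CPM in the controls (log2 fold change -1.48, SE 0.10, adjusted p = 2.5e-05, edgeR). Col1a2 and Lama1, named after their values were seen, were called higher but averaged only 0.643 and 0.294 CPM in the libraries with the Klf5-KO label and 0.0434 and 0.0258 CPM in the controls. The laminin chain gene Lamb1 and the thrombospondin gene Thbs1 were uneven in the controls, at 15.4 and 272 CPM in control replicate 3 against 1.28 to 2.09 and 74.3 to 77.0 CPM in the other two. Without control replicate 3, 5 ligand genes were called higher and 2 lower, and without Klf5-KO replicate 1, 1 was called higher. Over all genes, 2740 were called higher and 2664 lower without control replicate 3, and 1605 higher without Klf5-KO replicate 1. With all 6 libraries these counts were 2581 higher and 2413 lower. Fibronectin, the ligand of the Itga5 receptor, was near 1 CPM, with Fn1 at 1.81, 0.483 and 2.78 CPM in the libraries with the Klf5-KO label and 0.399, 1.34 and 1.34 CPM in the controls (adjusted p = 0.40, edgeR).

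Of 12 genes around the activation of TGF-beta, in which Itgb6 and Itgb8 act, 11 were tested, with a median log2 fold change of 0.03. Of the 11, 4 rose (36.4%, against 13.3% of all genes tested) and 1 fell (9.09%, against 12.5%). The receptor gene Tgfbr2 rose to 50.1 ± 1.77 CPM in the libraries labelled Klf5-KO, against 38.9 ± 2.44 CPM in the controls (log2 fold change 0.36, adjusted p = 0.014, edgeR). The latent TGF-beta binding protein genes Ltbp3 and Ltbp4 were low and moved in opposite directions (log2 fold changes 1.51 and -1.20, adjusted p = 0.020 and 0.017, edgeR). Ltbp1 and Tgfb3, also called higher and named after their values were seen, were at most 0.570 and 0.470 CPM in any library. The call of Tgfbr2 was lost without Klf5-KO replicate 3 (adjusted p = 0.053). That of Ltbp3 was lost without Klf5-KO replicate 1 or 2 or control replicate 1 (adjusted p = 0.052 to 0.060), and that of Ltbp4 without Klf5-KO replicate 1 or 3 or control replicate 2 (adjusted p = 0.055 to 0.068). Without any 1 of the libraries labelled Klf5-KO, or without control replicate 1, 2 genes of this list were called higher. In those fits 1605 to 2148 of all genes were called higher, against 2581 with all 6 libraries.

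**Figure D5:**
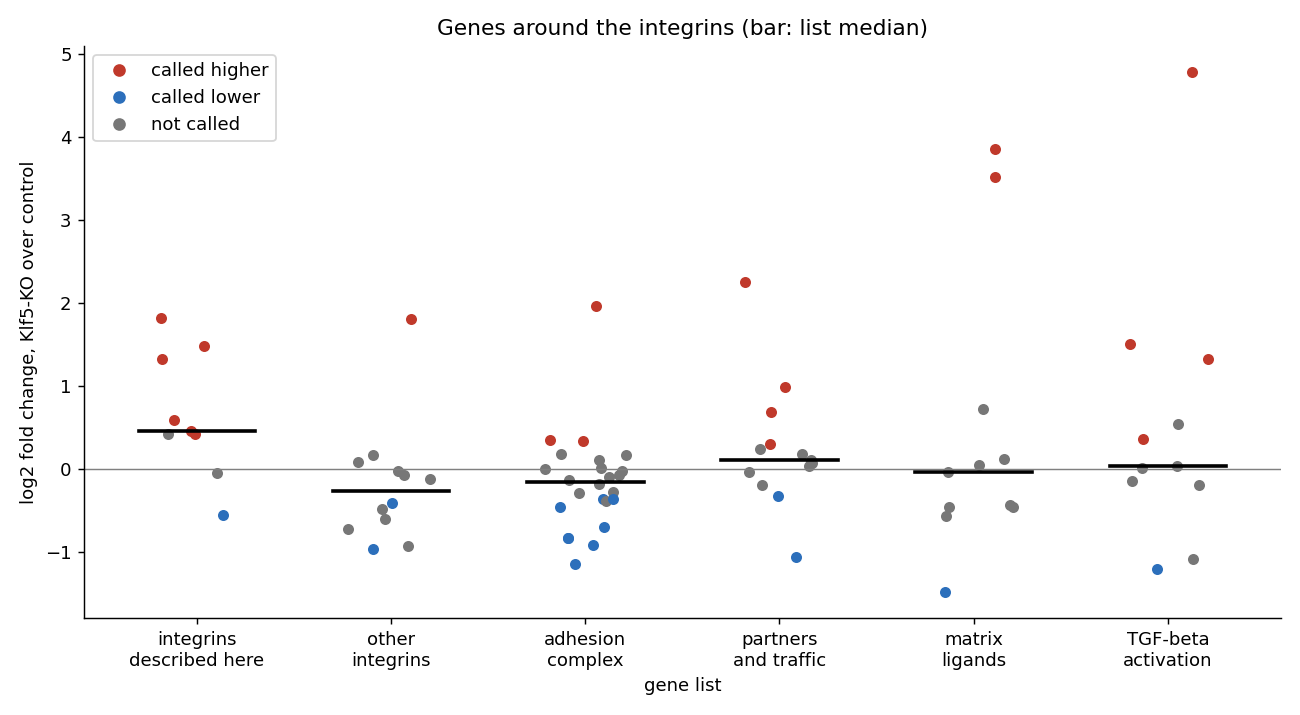
Log2 fold changes (libraries labelled Klf5-KO over control) of the tested genes in 6 lists, 1 point a gene, with horizontal jitter; red marks genes called higher, blue genes called lower and grey genes not called, and black bars give list medians. The median of the integrins described here is 0.47, against -0.26 for the other integrins and -0.16 for the adhesion complex.

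Markers of stromal and endothelial cells were low in both groups. Stromal markers (7 genes, 6 of them under 1 CPM in every library) summed to 0.716 to 0.779 CPM in the libraries labelled Klf5-KO and 2.65 to 3.46 CPM in the controls, with Pdgfrb the largest part in both groups (0.467 ± 0.0782 CPM in the libraries labelled Klf5-KO and 2.46 ± 0.538 CPM in the controls). Pdgfrb and Myh11 were called lower, and the other 5 were not tested. Lum was at 0 in the libraries labelled Klf5-KO and in 2 of the 3 controls. Endothelial markers (6 genes) summed to 1.93 to 2.84 CPM in the libraries labelled Klf5-KO and 4.56 to 6.49 CPM in the controls, with Cdh5 and Emcn at 0 in all libraries labelled Klf5-KO. Of these 6, Vwf was called lower (1.02 ± 0.131 CPM in the libraries labelled Klf5-KO and 3.54 ± 0.386 CPM in the controls). Leukocyte markers (10 genes) summed to 10.8 to 14.0 CPM in the libraries labelled Klf5-KO and 6.74 to 23.0 CPM in the controls. The stem cell markers were Lgr5, Olfm4, Ascl2, Smoc2 and Slc12a2. They summed to 3590 to 4990 CPM in the libraries labelled Klf5-KO and 7473 to 10369 CPM in the controls. Of these 5, 4 fell, where 12.5% of all genes tested were called lower. The part of all these markers in the integrin results was not tested. Without control replicate 3, the library rich in Paneth transcripts, 6 of the 10 integrin genes again rose and 1 fell. The Paneth sums of the remaining libraries did not overlap between the groups. They were 7716 to 9695 CPM in the libraries labelled Klf5-KO and 1465 and 1735 CPM in control replicates 1 and 2. The part of Paneth transcripts in the integrin results was not tested.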

How the data were processed

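RNA of Lgr5-EGFP-high cells was sequenced from stranded libraries depleted of ribosomal RNA, per the labels' protocols. The authors deposited raw counts for each gene and library. Per the submitters' processing notes, STAR 2.5.2a, featureCounts 1.4.3-p1, DESeq2 1.18.1 and the build mm10 were used; per the file headers, reads were assigned to GENCODE vM16 genes in reverse-strand mode with no option for multiply mapped reads. Per the file headers, the other deposited column used is the summed exon length of each gene.

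Symbols came from GENCODE vM21 (53274 of 53379 IDs matched). Counts were filtered with filterByExpr (19339 genes left), scaled with TMM factors and tested with edgeR 4.0.16 in R 4.3.3 (quasi-likelihood F test, group as the only term, Benjamini-Hochberg over all tested genes, threshold 0.05). The biological coefficient of variation was 17.0%. SE is the log2 fold change over the square root of F. RPKM divides CPM by kilobases of exon; levels with the longest vM21 transcript as length were added after seeing the data. Ratios were compared by exact permutation over libraries. Every pair of libraries differed by more than counting noise (chi-square over its degrees of freedom at least 43.3). Depth was 61563625 to 77666540 counts.

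The members and gene lists were chosen with earlier results of these data known. Named genes are all members, Klf5, Itga6, Itgb4 and called integrins. Of each other list they are up to 4 called genes of at least 1 CPM with the smallest p. Tln1, Fermt1, Fn1, Lamb1, Thbs1, Itgb2 and Itga10 were added after seeing values. So were Vcl, Ilk, Tns1, Dab2, Rab25, Col1a2, Lama1, Lama5, Lamc1, Lamb2, Ltbp1 and Tgfb3. Alternatives were other scalings (RLE, upper quartile, without mitochondrial and 2 ribosomal RNA-like genes), other filters (none, CPM above 1 in 3 libraries), DESeq2 1.42.0, limma-voom (limma 3.58.1), a robust fit, the replicate number as a block, and leaving out each library. Promoter sequences are those of RefSeq on GRCm38.p6; all 10 genes matched.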

Additional observations from a re-analysis of the deposited data

How the results depend on the processing

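Under 15 alternatives, the calls of Itga1, Itga2, Itga3, Itga5, Itgav and Itgb1 and their directions were kept (adjusted p at most 0.038), with log2 fold changes of 1.77 to 1.93, 0.46 to 0.74, -0.62 to -0.48, 1.43 to 1.58, 0.43 to 0.50 and 0.35 to 0.50 in this order. Itgb5 was not called in any (0.25 to 0.53, adjusted p 0.071 to 0.32). Itga9 lost its call without Klf5-KO replicate 1 or control replicate 2. Itgb6 changed sign without Klf5-KO replicate 2 (0.0865, adjusted p = 0.63) and without control replicate 2 (0.0173, adjusted p = 0.95); leaving out single libraries gave -0.114 to 0.0865. With no filter, the log2 fold change of Itgb8 was -0.22 (adjusted p = 0.88). Same-numbered libraries showed no shared deviation from their group means (correlations -0.0371 to 0.0366). With 3 libraries a group, this cannot exclude a pairing. With the replicate block, 6 members rose and 1 fell.

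Leaving out single libraries gave 5 to 6 members higher and 1 lower. It gave 3072 to 5404 genes called in all, 1605 to 2740 higher and 1467 to 2664 lower. The ranges, higher and lower, were 0 to 1 and 1 to 2 for the other integrin subunits, 1 to 3 and 4 to 9 for the adhesion complex, 3 to 4 and 1 to 2 for partners and traffic, 1 to 5 and 1 to 2 for matrix ligands, and 2 to 5 and 0 to 1 for TGF-beta activation. With CPM above 1 required in 3 libraries, fewer genes were tested, and 0 matrix ligands and 2 TGF-beta genes were called higher. With no filter and with DESeq2, 2 matrix ligands were called lower; the cause was not tested. The log2 differences of the ratios, which have no test there, were 1.32 to 1.501, -1.12 to -0.83, 0.95 to 1.14 and 0.52 to 1.10 for Itga1, Itga3, Itga5 and Itga9 over Itgb1, and 0.38 to 0.59 for Itgav over Itgb6. They were 0.0092 to 0.30 for Itga2 and -0.07 to 0.11 for Itgav over Itgb1, and -0.07 to 0.19 for Itgav over Itgb5.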
